A study of Arabidopsis thaliana with 12 samples.

Results

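The genes described here are 10 jasmonate biosynthesis enzymes of Arabidopsis thaliana, chosen by gene identifier from the 32833 genes of the deposited table: the lipoxygenases LOX2 (AT3G45140), LOX3 (AT1G17420) and LOX4 (AT1G72520), the allene oxide synthase AOS (AT5G42650), the allene oxide cyclases AOC1 (AT3G25760), AOC2 (AT3G25770), AOC3 (AT3G25780) and AOC4 (AT1G13280), the reductase OPR3 (AT2G06050) and the CoA ligase OPCL1 (AT1G20510). All 10 were found, all were measured above 0 in every library, and all passed the expression filter of the test. These genes and the other lists below were chosen with earlier results of these data known. Their counts beside the shares of all genes are therefore a description. The table names AOS as CYP74A and OPCL1 as 4CLL5. RNA was sequenced from whole Col-0 seedlings that had grown for 10 days in liquid medium and were then treated for 6 h. The treatments were 600 nM isoxaben, 10 nM PEP3, 600 nM isoxaben together with 10 nM PEP3, and a DMSO mock, and DMSO was present at the same amount in all of them. Each treatment had 3 biological replicates, so that 12 libraries were compared. All seedlings were wild type, 1 time and 1 dose of each agent were sampled, and a whole-seedling library cannot tell more cells of a type from more RNA per cell.

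Jasmonates are made from linolenic acid released from plastid membranes. In the plastid a lipoxygenase adds oxygen to the fatty acid, allene oxide synthase turns the hydroperoxide into an unstable allene oxide, and allene oxide cyclase closes the ring to give the intermediate OPDA. In the peroxisome OPR3 reduces OPDA, OPCL1 attaches CoA to the product, and beta-oxidation shortens the chain to jasmonic acid, which JAR1 joins to isoleucine to give the active hormone. Perception of the conjugate by COI1 leads to destruction of JAZ repressors, and the genes of synthesis are themselves targets of the pathway, which is known for its part in the wound response. Isoxaben, a herbicide, blocks the making of cellulose in the wall of growing cells. PEP3 belongs to the plant elicitor peptides, which act as danger signals and bind the receptor kinases PEPR1 and PEPR2.

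Levels are given as deposited, in FPKM, which corrects fragment counts for gene length and library depth. Between 16995775 and 22793764 fragments per library were assigned to genes, and the correlation between replicates across genes was 0.986 to 0.991. The limma test used log2(FPKM + 1) for the 20248 genes whose mean reached 0.5 FPKM, and a gene was called at a Benjamini-Hochberg adjusted p under 0.05. Each log2 change below is a difference on that scale, which understates the change of low genes. Markers of green tissue and of roots were both detected: 6 of 7 shoot markers and 7 of 8 root markers passed the filter, with LHB1B2 of the shoot list at 0 in all libraries and IRT1 of the root list under the filter. Passing the filter does not by itself show a tissue, since 2 of 4 flower markers (AP3 and AG) and 1 of 3 seed markers passed too. The levels differed: the shoot list summed to at least 18552 FPKM per library and the root list to at least 1352. The 4 flower markers summed to 0.942 to 1.47 FPKM in isoxaben, 1.46 to 2.80 in PEP3, 1.31 to 1.51 in isoxaben plus PEP3 and 1.47 to 1.89 in DMSO. Isoxaben replicate 2 was the highest isoxaben library for 10 of the 10 genes, and DMSO replicate 1 was the lowest DMSO library for 9 of them. In PEP3 no replicate was the highest for more than 4 genes, and in isoxaben plus PEP3 replicate 2 was the highest for 7.

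After isoxaben, RNA of most of these genes was higher, from the lipoxygenases to the CoA ligase OPCL1. The values are RNA levels and do not show amounts of enzyme or of jasmonate. Compared with DMSO, 9 of the 10 genes were called higher, 0 were called lower, and AOC4 was not called. Of all 20248 genes tested, 17.3% were called higher and 15.2% lower. The libraries of the compared treatments did not overlap for those 9 genes, where 23.0% of all genes lay wholly higher in isoxaben. The median change over the 10 genes was 1.99, against -0.0065 over all genes tested. The changes ran from 0.27 for AOC4 to 3.51 for LOX4.

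**Figure D1:**
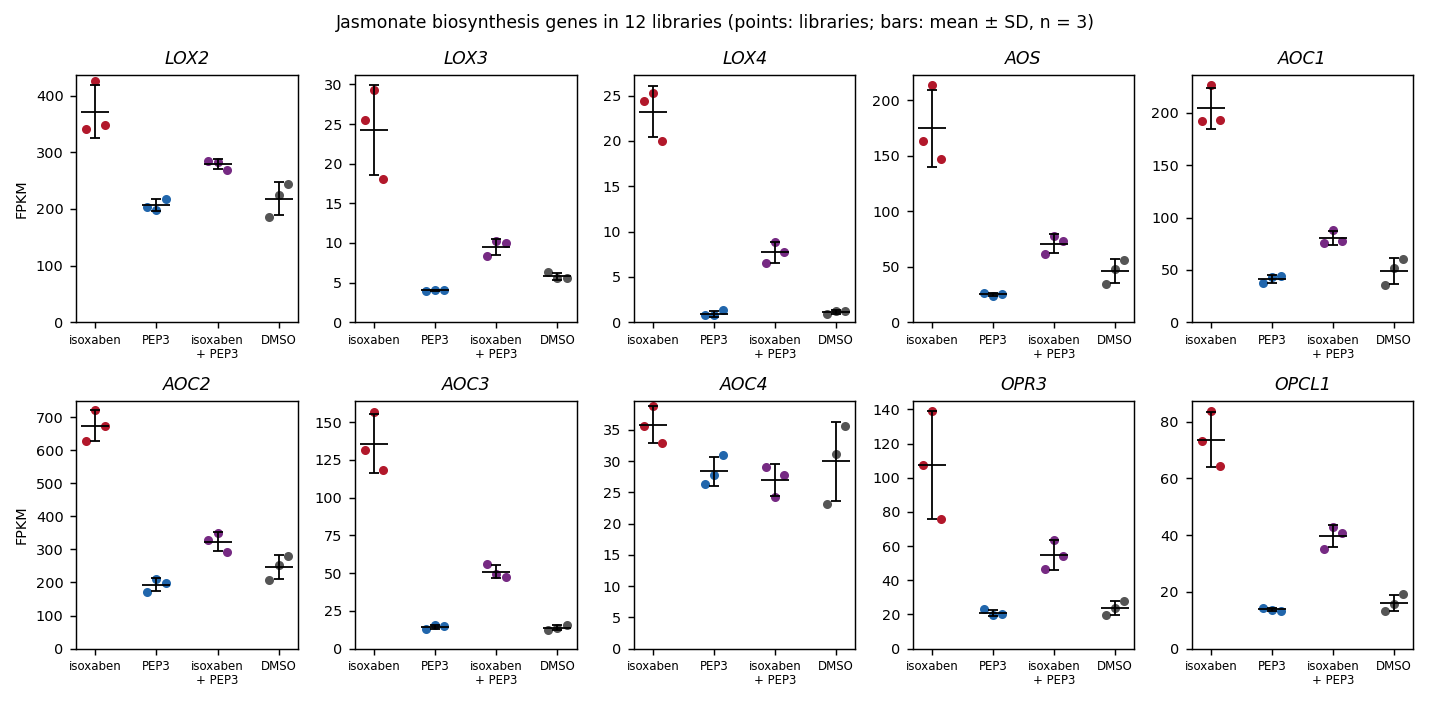
FPKM of each gene (vertical axis, from 0, scaled per gene) in the 3 libraries of each treatment (points), with the mean and SD as bars. In every panel but that of AOC4 the isoxaben libraries stand above all others, and the libraries of isoxaben plus PEP3 lie between those of isoxaben and DMSO.

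The 3 lipoxygenases carry out the first step in the plastid and differed widely in level and in response. LOX2 had 341, 425 and 348 FPKM in isoxaben, 204, 199 and 218 in PEP3, 285, 282 and 269 in isoxaben plus PEP3, and 186, 224 and 244 in DMSO. LOX2 was the most abundant of them in every library, and its isoxaben libraries all lay above its DMSO libraries. It averaged 371 ± 46.9 FPKM in isoxaben and 218 ± 29.5 FPKM in DMSO (mean ± SD, n = 3 each), 1.70 times as high, a log2 change of 0.77 (SE 0.0988, adjusted p 4.62e-05 by limma). This was the smallest of the 9 called rises. LOX3 had 25.5, 29.3 and 18.1 FPKM in isoxaben, 3.92, 4.07 and 4.02 in PEP3, 8.39, 10.3 and 9.95 in isoxaben plus PEP3, and 6.33, 5.53 and 5.58 in DMSO. The isoxaben libraries of LOX3 were again the highest, with replicate 3 the lowest of them, and the PEP3 libraries were the lowest of all. Its log2 change after isoxaben was 1.87 (SE 0.138, adjusted p 2.77e-07 by limma), 4.18 times the DMSO mean. LOX4 had 24.4, 25.3 and 20.0 FPKM in isoxaben, 0.750, 0.772 and 1.30 in PEP3, 6.56, 8.84 and 7.78 in isoxaben plus PEP3, and 0.898, 1.26 and 1.21 in DMSO. LOX4 was near 1 FPKM without isoxaben and stood at the level of LOX3 with it. Its rise was the largest of the 10 genes, 20.7 times the DMSO mean and a log2 change of 3.51 (SE 0.140, adjusted p 1.78e-09 by limma). The LOX4 values rested on 1050 to 1724 fragments per isoxaben library and 59 to 69 per DMSO library. LOX3 (chromosome 1, 5977323 to 5981521) and LOX4 (chromosome 1, 27308513 to 27312756) are 79.9% identical over 89.4% of the LOX3 transcript, so that fragments from their most alike stretches could be assigned to either. LOX2 lies on chromosome 3, 16525245 to 16529352.

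AOS makes the allene oxide. AOS had 163, 214 and 147 FPKM in isoxaben, 26.6, 23.9 and 25.6 in PEP3, 61.5, 78.0 and 73.2 in isoxaben plus PEP3, and 34.5, 47.7 and 55.9 in DMSO. The 3 isoxaben libraries were far above the other 9, and the PEP3 libraries were the lowest. AOS averaged 175 ± 34.6 FPKM in isoxaben and 46.0 ± 10.8 FPKM in DMSO, 3.80 times as high, with a log2 change of 1.91 (SE 0.160, adjusted p 9.13e-07 by limma). AOS has 1 exon (chromosome 5, 17097564 to 17099595, minus strand). Its upstream sequence is shown because AOS was the only one of the 10 genes with a G-box, the letters CACGTG bound by the MYC factors of jasmonate signalling, in the 250 bases before its annotated start. The positions are those of the RefSeq TAIR10.1 genome, and the capitals mark the G-box.
AOS, chr5:17099596-17099845, minus strand: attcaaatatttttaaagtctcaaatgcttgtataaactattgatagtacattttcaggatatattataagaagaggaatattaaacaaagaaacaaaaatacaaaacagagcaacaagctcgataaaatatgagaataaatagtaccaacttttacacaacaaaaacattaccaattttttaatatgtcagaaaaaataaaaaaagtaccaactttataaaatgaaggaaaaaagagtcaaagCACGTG
The G-box is the last 6 bases before the start. The window of 1780 of 27443 protein-coding genes (6.49%) holds the same letters. On either strand, the GCC-box letters GCCGCC were in the window of 0 of the 10 genes and in 1.87% of all windows, and the W-box core TTGAC was in 6 of the 10 and in 44.9% of all. A match is a description of the letters and not of a site in use.

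The allene oxide cyclases AOC1, AOC2 and AOC3 stand next to each other on chromosome 3 (9403779 to 9405338, 9406669 to 9408071 and 9409160 to 9411090, all on the plus strand), and AOC4 is on chromosome 1, 4547388 to 4548894. AOC1 had 192, 227 and 193 FPKM in isoxaben, 37.1, 43.3 and 43.8 in PEP3, 75.3, 87.9 and 78.0 in isoxaben plus PEP3, and 36.0, 51.3 and 60.1 in DMSO. AOC2 had 628, 722 and 673 FPKM in isoxaben, 171, 209 and 199.7 in PEP3, 329, 349 and 291 in isoxaben plus PEP3, and 207, 252 and 280.1 in DMSO. AOC2 was the most abundant of the 10 genes in isoxaben, and both genes were higher in each isoxaben library than in any other. The log2 change was 2.06 (SE 0.145, adjusted p 1.81e-07 by limma) for AOC1 and 1.46 (SE 0.109, adjusted p 3.14e-07 by limma) for AOC2. AOC3 had 132, 157 and 119 FPKM in isoxaben, 13.0, 15.3 and 14.6 in PEP3, 55.8, 49.5 and 47.5 in isoxaben plus PEP3, and 12.3, 13.6 and 15.5 in DMSO. AOC3 was low without isoxaben and rose most in the family. It averaged 136 ± 19.5 FPKM in isoxaben and 13.8 ± 1.64 FPKM in DMSO, 9.85 times as high, with a log2 change of 3.21 (SE 0.109, adjusted p 4.27e-10 by limma). AOC4 had 35.6, 38.9 and 33.0 FPKM in isoxaben, 26.4, 27.9 and 30.9 in PEP3, 29.1, 24.2 and 27.8 in isoxaben plus PEP3, and 23.2, 31.2 and 35.7 in DMSO. The AOC4 libraries of isoxaben and DMSO overlapped, and the log2 change was 0.27 (SE 0.129, adjusted p 0.139 by limma), with a 95% interval of -0.013 to 0.54. Without DMSO replicate 3 AOC4 was called higher (log2 change 0.40, limma adjusted p 0.0290), and without DMSO replicate 1 its change was 0.10 (0.563). The AOC4 transcript is 77.2% identical to that of AOC3 in the aligned part.

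The upstream sequences of the 3 neighbouring cyclase genes are shown because the genes are copies that differ in level and in rise. Capitals mark the longest run shared by the AOC1 and AOC2 windows, of 19 bases, and in AOC3 the W-box core TTGAC.
AOC1, chr3:9403529-9403778, plus strand: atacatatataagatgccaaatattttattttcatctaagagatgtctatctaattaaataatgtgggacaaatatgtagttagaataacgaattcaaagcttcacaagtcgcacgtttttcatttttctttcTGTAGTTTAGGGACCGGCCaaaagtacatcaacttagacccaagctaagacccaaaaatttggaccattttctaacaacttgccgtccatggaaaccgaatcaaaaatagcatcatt
AOC2, chr3:9406419-9406668, plus strand: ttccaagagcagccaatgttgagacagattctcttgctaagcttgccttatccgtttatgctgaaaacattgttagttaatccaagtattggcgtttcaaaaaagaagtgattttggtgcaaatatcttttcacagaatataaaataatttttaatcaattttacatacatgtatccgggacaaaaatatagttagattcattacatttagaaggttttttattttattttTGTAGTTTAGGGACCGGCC
AOC3, chr3:9408910-9409159, plus strand: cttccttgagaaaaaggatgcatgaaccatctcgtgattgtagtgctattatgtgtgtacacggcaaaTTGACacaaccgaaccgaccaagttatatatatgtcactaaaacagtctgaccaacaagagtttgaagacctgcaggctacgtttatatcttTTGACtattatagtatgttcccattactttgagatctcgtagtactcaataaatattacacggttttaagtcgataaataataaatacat
The shared run lies at positions -117 to -99 from the annotated start of AOC1 and -19 to -1 from that of AOC2. Among the 45 pairs of the 10 windows the next longest shared run had 11 bases. The AOC1 and AOC2 transcripts are 86.1% identical over 80.3% of AOC1, and those of AOC1 and AOC3 81.6% over 65.0%, so that some fragments could be assigned to the wrong copy. Summed into 1 value, the 3 genes had a log2 change of 1.72 after isoxaben (SE 0.112, limma adjusted p 9.49e-08).

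RNA of both peroxisomal enzymes rose. OPR3 had 108, 139 and 75.8 FPKM in isoxaben, 23.0, 19.8 and 20.3 in PEP3, 46.4, 63.8 and 54.3 in isoxaben plus PEP3, and 19.7, 23.8 and 28.0 in DMSO. OPR3, the reductase of OPDA, spread widely among the isoxaben libraries, and its lowest isoxaben library was still above every library of the other treatments. It averaged 107 ± 31.6 FPKM in isoxaben and 23.8 ± 4.15 FPKM in DMSO, with a log2 change of 2.10 (SE 0.184, adjusted p 1.37e-06 by limma). OPCL1 had 73.1, 83.8 and 64.2 FPKM in isoxaben, 14.3, 13.7 and 13.3 in PEP3, 35.2, 43.0 and 40.6 in isoxaben plus PEP3, and 13.4, 15.8 and 19.1 in DMSO. OPCL1, which activates the reduced intermediate with CoA, averaged 73.7 ± 9.82 FPKM in isoxaben and 16.1 ± 2.89 FPKM in DMSO, with a log2 change of 2.13 (SE 0.121, adjusted p 2.63e-08 by limma). Isoxaben means were 4.51 and 4.57 times the DMSO means for OPR3 and OPCL1. OPR3 lies on chromosome 2, 2359114 to 2362375, and OPCL1 on chromosome 1, 7103362 to 7106121, both on the minus strand.

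The order of the levels, which are per kilobase and can be set side by side, changed with isoxaben. In isoxaben it was AOC2, LOX2, AOC1, AOS, AOC3, OPR3, OPCL1, AOC4, LOX3 and LOX4, and in DMSO it was AOC2, LOX2, AOC1, AOS, AOC4, OPR3, OPCL1, AOC3, LOX3 and LOX4. In isoxaben the library ranges overlapped between neighbours for AOC1 and AOS, AOS and AOC3, AOC3 and OPR3, OPR3 and OPCL1, and LOX3 and LOX4. In DMSO they overlapped for AOC2 and LOX2, AOC1 and AOS, AOS and AOC4, AOC4 and OPR3, and OPCL1 and AOC3. AOC3 thus stood above OPR3, OPCL1 and AOC4 by its mean in isoxaben and below all of them in DMSO.

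PEP3 alone did not raise any of the 10 genes past the threshold, and it lowered AOS. Compared with DMSO, 0 genes were called higher and 2 lower, where 7.84% of all genes tested were called higher and 6.45% lower. AOS averaged 25.3 ± 1.38 FPKM in PEP3 and 46.0 ± 10.8 FPKM in DMSO, a log2 change of -0.81 (SE 0.160, adjusted p 0.00470 by limma), and every PEP3 library lay below every DMSO library. The call held under all 22 alternatives run for it, with adjusted p between 0.000163 and 0.0426. LOX3 averaged 4.01 ± 0.0767 FPKM in PEP3 and 5.81 ± 0.444 FPKM in DMSO, a log2 change of -0.44 (SE 0.138, adjusted p 0.0476 by limma), also without overlap. This call was lost under 14 of 22 alternatives, among them those without DMSO replicate 1, 2 or 3 and without PEP3 replicate 1, 2 or 3, with adjusted p between 0.00737 and 0.164. Libraries lay wholly lower in PEP3 for these 2 genes, against 15.4% of all genes tested.

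For the other 8 genes the PEP3 and DMSO libraries overlapped. The median change over the 10 genes was -0.18, against 0.0069 over all genes tested. AOC2 came closest to the threshold, with 193 ± 19.8 FPKM in PEP3 and 246 ± 36.8 FPKM in DMSO and a log2 change of -0.34 (SE 0.109, adjusted p 0.0535 by limma). It was called lower with the filter at a mean of 2 FPKM (limma adjusted p 0.0459) and without DMSO replicate 1 (log2 change -0.46, limma adjusted p 0.0166). Without that library AOC1 was called lower as well (log2 change -0.42, limma adjusted p 0.0305). The 95% intervals of the log2 change were -0.28 to 0.15 for LOX2, -0.44 to 0.17 for LOX4, -0.53 to 0.10 for AOC1 and -0.18 to 0.29 for AOC3. They were -0.34 to 0.22 for AOC4, -0.56 to 0.24 for OPR3 and -0.46 to 0.062 for OPCL1. LOX4 rested on 40 to 74 fragments per PEP3 library.

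The direct comparison of the single treatments called 9 of the 10 genes higher in isoxaben than in PEP3, with AOC4 not called, where 12.3% of all genes tested were called higher and 9.76% lower. The log2 difference ran from 0.33 for AOC4 to 3.65 for LOX4. Isoxaben libraries were wholly above PEP3 libraries for all 10 genes, as they were for 18.4% of all genes tested. AOS, at 175 ± 34.6 FPKM in isoxaben and 25.3 ± 1.38 FPKM in PEP3, differed by 2.72 (SE 0.160, adjusted p 8.57e-08 by limma).

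With PEP3 present, isoxaben still raised the genes, but to lower levels. Isoxaben plus PEP3 was higher than DMSO for 9 of the 10 genes, with AOC4 not called, where 16.9% of all genes tested were called higher and 14.4% lower. The libraries did not overlap for these 9, against 23.4% of all genes. The call was lost for AOC2 without replicate 2 of the combined treatment (adjusted p 0.0591), and for AOC2 and LOX2 without DMSO replicate 1 (0.0681 and 0.0646). With no expression filter it was lost for LOX2, AOS and AOC2 (0.0565, 0.0535 and 0.0631). AOC4 passed the threshold in an alternative, as lower than DMSO (limma adjusted p 0.0483). Compared with isoxaben alone, adding PEP3 lowered 9 of the 10 genes, with AOC4 again not called, where 4.09% of all genes tested were called lower and 3.32% higher. The median change was -1.15, against -0.0023 over all genes, and all 10 genes had every library of isoxaben plus PEP3 below every library of isoxaben, as 13.0% of all genes did. Both comparisons use the libraries of isoxaben plus PEP3, and the comparisons of isoxaben with DMSO and with the combined treatment share the isoxaben libraries with opposite sign, so that they are not independent of each other.

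**Figure D2:**
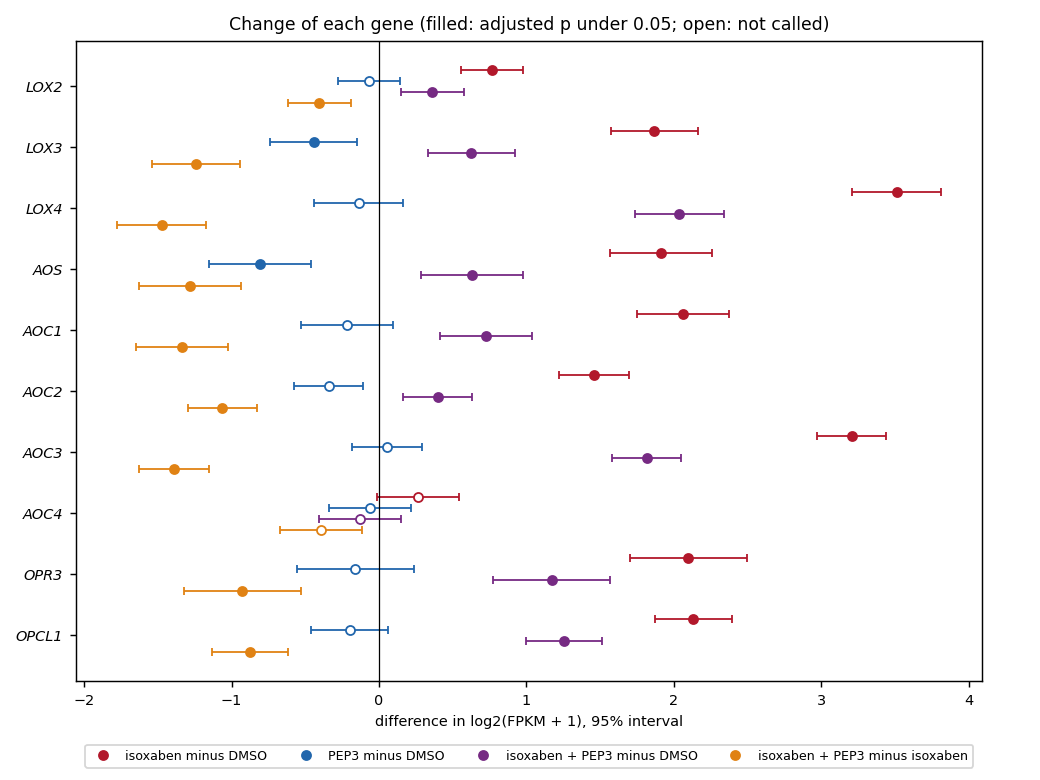
Difference in log2(FPKM + 1) with its 95% interval (horizontal axis) for each gene and 4 comparisons, with filled marks for called and open marks for uncalled genes. Isoxaben minus DMSO lies between 0.27 and 3.51, PEP3 minus DMSO between -0.81 and 0.053, and isoxaben plus PEP3 minus isoxaben between -1.47 and -0.39.

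Among the lipoxygenases, LOX4 averaged 7.73 ± 1.14 FPKM in isoxaben plus PEP3 and 23.2 ± 2.82 FPKM in isoxaben, a log2 change of -1.47 (SE 0.140, adjusted p 5.42e-05 by limma), the largest fall of the 10. LOX3 averaged 9.55 ± 1.02 FPKM in isoxaben plus PEP3 and 24.3 ± 5.67 FPKM in isoxaben, a log2 change of -1.24 (SE 0.138, adjusted p 0.000182 by limma). LOX2 averaged 279 ± 8.50 FPKM in isoxaben plus PEP3, with the smallest called fall, -0.40 (SE 0.0988, adjusted p 0.0258 by limma). The LOX2 fall missed the threshold under 6 of 22 alternatives, among them those without isoxaben replicate 2 (adjusted p 0.0853) and without replicate 1, 2 or 3 of the combined treatment (0.0551, 0.0654 and 0.0857). AOS averaged 70.9 ± 8.44 FPKM in isoxaben plus PEP3 and fell by 1.28 on the log2 scale (SE 0.160, limma adjusted p 0.000446).

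The neighbouring cyclases fell too, with log2 changes of -1.33 (SE 0.145, adjusted p 0.000150 by limma) for AOC1, -1.06 (SE 0.109, adjusted p 0.000105 by limma) for AOC2 and -1.39 (SE 0.109, adjusted p 1.03e-05 by limma) for AOC3. AOC4 averaged 27.0 ± 2.55 FPKM in isoxaben plus PEP3 and 35.8 ± 2.96 FPKM in isoxaben, a log2 change of -0.39 (SE 0.129, adjusted p 0.0874 by limma), and was called lower without DMSO replicate 1 (limma adjusted p 0.0255). The peroxisomal enzymes had log2 changes of -0.93 (SE 0.184, adjusted p 0.00872 by limma) for OPR3 and -0.88 (SE 0.121, adjusted p 0.000837 by limma) for OPCL1. The OPR3 call was lost with no expression filter (adjusted p 0.0733).

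Expressed in FPKM, the rise over DMSO in isoxaben plus PEP3 was a fraction of the rise in isoxaben alone. For AOC2 the mean was 76.8 FPKM above DMSO in isoxaben plus PEP3 and 428 FPKM above it in isoxaben, 17.9%, the lowest of the 9 genes that isoxaben raised. The same share was 19.3% for AOS, 20.2% for LOX3 and 20.2% for AOC1. It was 29.9% for LOX4, 30.5% for AOC3, 37.1% for OPR3, 39.7% for LOX2 and 40.8% for OPCL1. These shares are ratios of differences of means that use the same DMSO libraries, and they carry no test. Against PEP3 alone, isoxaben plus PEP3 was higher for 9 of the 10 genes, where 6.02% of all genes tested were called higher and 2.25% lower. The LOX2 call was lost without PEP3 replicate 2 (adjusted p 0.0623), among others. The difference was 2.17 (SE 0.140, adjusted p 7.44e-07 by limma) for LOX4, 1.76 (SE 0.109, adjusted p 6.43e-07 by limma) for AOC3 and 1.44 (SE 0.160, adjusted p 6.62e-05 by limma) for AOS.

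Whether PEP3 acted on these genes differently with isoxaben than without was tested as the interaction, the log2 change that PEP3 gave in isoxaben-treated seedlings minus the log2 change it gave in mock-treated ones. All 10 estimates were below 0, and 6 genes were called below additivity and 0 above, where 4.30% and 1.94% of all genes tested were. The called genes were AOC3 with -1.44 (SE 0.154, adjusted p 0.000325 by limma), LOX4 with -1.34 (SE 0.198, adjusted p 0.00228 by limma), AOC1 with -1.12 (SE 0.205, adjusted p 0.00689 by limma), LOX3 with -0.80 (SE 0.195, adjusted p 0.0291 by limma), AOC2 with -0.72 (SE 0.154, adjusted p 0.0159 by limma) and OPCL1 with -0.68 (SE 0.170, adjusted p 0.0335 by limma). LOX4 and AOC3 were called in every alternative run for them. AOC1 and AOC2 were lost with no expression filter (adjusted p 0.0682 and 0.0923). LOX3 was lost in 8 and OPCL1 in 9 of the 12 fits without 1 library, with adjusted p up to 0.118 and 0.156 over all alternatives. With DMSO replicate 1 and isoxaben replicate 2 both left out, the libraries at the edge of their groups for most of the 10 genes, 3 genes were called, AOC1, AOC3 and LOX4.

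The remaining genes had estimates of -0.77 (SE 0.260, adjusted p 0.105 by limma) for OPR3, -0.47 (SE 0.227, adjusted p 0.261 by limma) for AOS, -0.34 (SE 0.140, adjusted p 0.185 by limma) for LOX2 and -0.33 (SE 0.182, adjusted p 0.327 by limma) for AOC4. AOS, which PEP3 also lowered without isoxaben, had a 95% interval of -0.96 to 0.02. OPR3 was called without isoxaben replicate 3 (log2 estimate -0.99, adjusted p 0.0132). Without DMSO replicate 1 the estimates shrank to -0.28 for AOS and -0.16 for AOC4. With isoxaben replicate 2 left out as well they were -0.13 for AOS, -0.10 for AOC4, -0.13 for LOX2 and -0.43 for OPR3. Set against the sum of the single effects in FPKM, isoxaben + PEP3 - DMSO, the combined treatment was called lower for 8 of the 10 genes, AOS and OPR3 among them, where 3.07% of all genes tested were called lower and 1.78% higher. AOS measured 70.5 FPKM where the sum was 153 FPKM (adjusted p 0.0111), and OPR3 measured 54.4 FPKM where the sum was 102 FPKM (0.0299). LOX2 measured 279 FPKM where the sum was 359 FPKM (0.106), and like AOC4 it was not called.

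**Figure D3:**
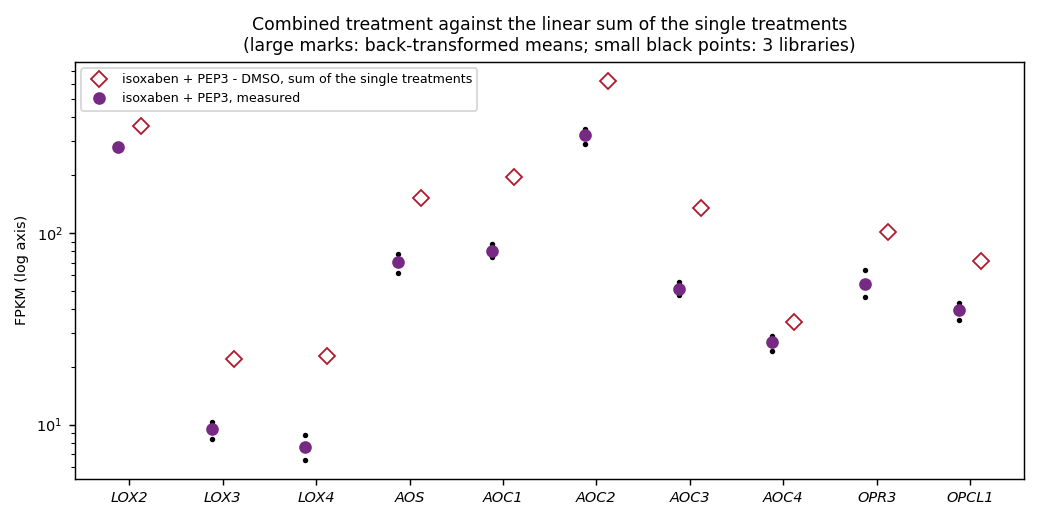
FPKM (vertical log axis) of each gene in isoxaben plus PEP3 as measured (filled marks, back-transformed means, with the 3 libraries as small points) and as the linear sum of the single treatments (open marks). The measured mean is below the sum for all 10 genes, for AOC2 at 322 against 622 FPKM.

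The share that each gene held of its family lay apart between isoxaben and DMSO libraries. Of the summed FPKM of the 4 cyclase genes, AOC3 held 12.9% ± 1.09 in isoxaben, 5.16% ± 0.0882 in PEP3, 10.6% ± 0.846 in isoxaben plus PEP3 and 4.09% ± 0.273 in DMSO (mean ± SD, n = 3 libraries each). AOC2 held 64.3% ± 1.62 in isoxaben and 72.8% ± 1.44 in DMSO, and AOC4 held 3.41% ± 0.183 in isoxaben and 8.80% ± 0.425 in DMSO. The family sum was 1050.1 ± 83.6 FPKM in isoxaben, 277 ± 26.1 in PEP3, 481 ± 33.6 in isoxaben plus PEP3 and 339 ± 56.9 in DMSO. AOC3 held more of the family in isoxaben than in DMSO and AOC2 and AOC4 less. AOC1 held 19.4% ± 0.417 in isoxaben and 14.4% ± 1.27 in DMSO. Of the summed FPKM of LOX2, LOX3 and LOX4, LOX2 held 88.7% ± 1.45 in isoxaben, 97.7% ± 0.0839 in PEP3, 94.2% ± 0.747 in isoxaben plus PEP3 and 96.9% ± 0.541 in DMSO. LOX4 held 5.56% ± 0.592 in isoxaben and 0.496% ± 0.0418 in DMSO. The 7 shares did not overlap between isoxaben and DMSO libraries. The two-sided exact permutation p was 0.1 for each of them, the smallest that 3 libraries against 3 allow, so that no share can pass 0.05 by this permutation test, alone or adjusted over the 35 share comparisons made.

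**Figure D4:**
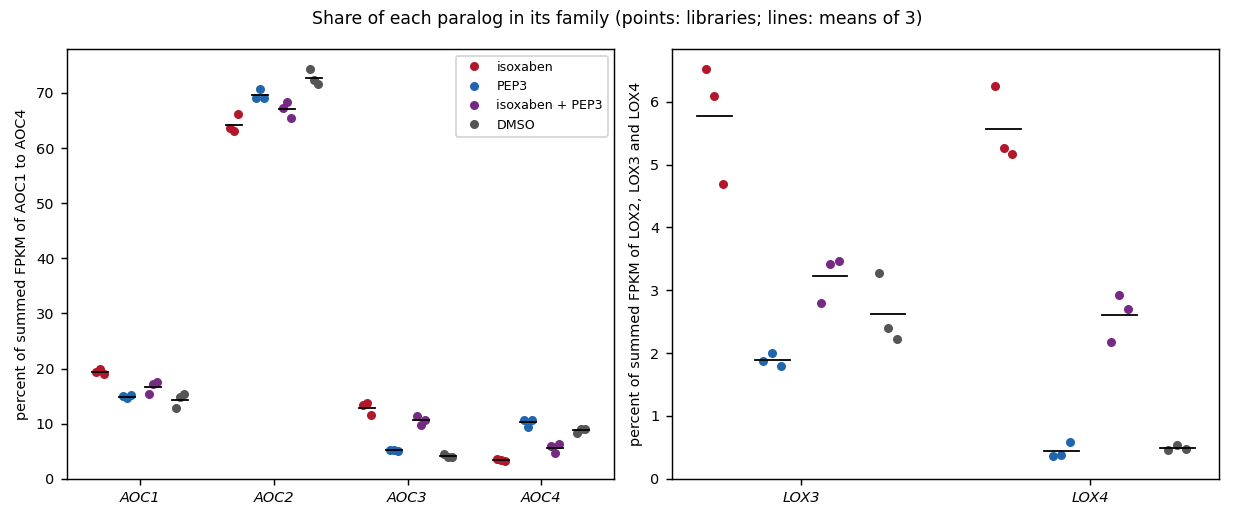
Percent of the summed FPKM of AOC1 to AOC4 held by each cyclase gene (left) and of LOX2, LOX3 and LOX4 held by LOX3 and LOX4 (right), per library (points) with the mean of 3 (lines). AOC3, LOX3 and LOX4 hold their largest shares in isoxaben, and AOC2 its largest in DMSO.

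Over the 12 libraries 9 of the 10 genes followed a common profile. The correlation of each gene with the mean profile of the other 9 was between 0.966 and 0.993 for these (Pearson r on the log2 scale, n = 12 libraries), and 0.571 for AOC4. These correlations are a description: the libraries share their treatments and their depth scaling. Among the 16961 other genes whose mean reached 2 FPKM, the 5 whose values over the 12 libraries were most like the mean profile were JAZ8 (TIFY5A, r = 0.995), JAZ2 (TIFY10B, r = 0.994), AT1G59950 (r = 0.990), the nitrate transporter gene NPF7.2 (r = 0.989) and DTX47 (EDS5, r = 0.989). JAZ8, a repressor gene of jasmonate signalling, averaged 24.2 ± 6.99 FPKM in isoxaben, 0.205 ± 0.179 in PEP3, 3.42 ± 0.722 in isoxaben plus PEP3 and 0.564 ± 0.538 in DMSO. JAZ8 reached the mean of 2 FPKM only through its isoxaben libraries. Its place among these 5 genes is therefore not independent of that minimum.

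Some of the other genes around the pathway rose after isoxaben too. Of a list of 25 further genes, which holds synthesis steps before and after those above and the related enzymes LOX1, LOX5, OPR1 and OPR2, 23 passed the filter. After isoxaben 8 of the 23 were called higher and 1 lower, where 17.3% and 15.2% of all genes tested were, and 14 were not called, with a median change of 0.13 against -0.0065 over all genes tested. OPR1, a cytosolic relative of OPR3, averaged 107 ± 17.3 FPKM in isoxaben and 53.7 ± 5.14 FPKM in DMSO (log2 change 0.97, SE 0.165, adjusted p 0.000459 by limma), while OPR2 averaged 28.6 ± 7.00 FPKM in isoxaben and 30.8 ± 2.84 FPKM in DMSO and was not called. LOX1, a lipoxygenase that acts on another carbon of the fatty acid and is outside the jasmonate route, changed by 0.91 (SE 0.141, adjusted p 0.000232 by limma), the plastid lipase gene PLIP2 by 0.89 (SE 0.163, adjusted p 0.000834 by limma), and ACX1, an acyl-CoA oxidase of the beta-oxidation step, by 0.83 (SE 0.0847, adjusted p 5.45e-06 by limma). LOX6, the other plastid lipoxygenase of this route, had 9.98 ± 1.19 FPKM in isoxaben and 8.12 ± 0.514 FPKM in DMSO and was not called (limma adjusted p 0.0592), and neither was LOX5 (0.0776). The gene called lower was the thiolase gene KAT5 (log2 change -0.70, SE 0.141, adjusted p 0.00164 by limma), named here after its value was seen. PEP3 alone raised 7 of the 23, with LOX1 at 0.75 (SE 0.141, adjusted p 0.00337 by limma), and lowered 3, which were FAD7, FAD8 and KAT5, where 7.84% and 6.45% of all genes tested were called higher and lower. The others raised by PEP3, named after their values were seen, were the beta-oxidation genes ACX2 (log2 change 0.49), MFP2 (0.34), ACX4 (0.28), ACX3 (0.26), PED1 (0.22) and AIM1 (0.21). ACX1, ACX5 and KAT1, also of that step, were not called after PEP3. Adding PEP3 to isoxaben lowered 3, FAD7, FAD8 and ACX1, and raised ACX2. ACX1 fell by 0.41 on the log2 scale (SE 0.0847, limma adjusted p 0.0107).

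Genes of JAZ repression and of jasmonate turnover were also called higher after isoxaben. Of 18 genes of conjugation, perception and JAZ repression, 17 were tested, and isoxaben raised 11, all of them JAZ genes, and lowered 1, MYC4, with a median change of 1.37. Of all genes tested, 17.3% were called higher and 15.2% lower in that comparison. JAZ13, among the raised genes, reached the filter through its isoxaben libraries, so that its calls are not independent of the filter. It averaged 3.77 FPKM in isoxaben, 0.0669 in PEP3, 0.973 in isoxaben plus PEP3 and 0.233 in DMSO. JAR1 had 20.7 ± 1.84 FPKM in isoxaben and 21.3 ± 0.554 FPKM in DMSO and COI1 had 14.7 ± 1.90 FPKM in isoxaben and 16.1 ± 1.63 FPKM in DMSO, and neither was called (limma adjusted p 0.709 and 0.376). The largest rises were those of JAZ8 (log2 change 4.04, SE 0.251, adjusted p 6.06e-08 by limma), JAZ5 (log2 change 3.43, SE 0.160, adjusted p 6.29e-09 by limma), JAZ10 (log2 change 3.26, SE 0.124, adjusted p 1.25e-09 by limma) and JAZ1 (log2 change 3.03, SE 0.168, adjusted p 2.34e-08 by limma). PEP3 alone raised 0 and lowered 1 of the 17, JAZ9, where 7.84% of all genes tested were called higher and 6.45% lower. Adding PEP3 to isoxaben lowered 11 of the 17 and raised 0, where 4.09% of all genes tested were called lower and 3.32% higher. MYC2, which encodes a main transcription factor of the pathway, is listed at 0 in all 12 libraries and was not tested. LHB1B2, a gene of the light-harvesting antenna, is listed at 0 as well, so that a 0 in this table cannot be read as absence of expression. Of 11 genes of jasmonate turnover, 9 were tested, and isoxaben raised 8, PEP3 alone raised 0 and lowered 1, JOX4 (AT2G38240), and adding PEP3 to isoxaben lowered 8, to be read against the same shares of all genes. CYP94C1, which oxidises the active conjugate, averaged 28.6 ± 4.46 FPKM in isoxaben, 1.59 ± 0.0389 in PEP3, 15.7 ± 1.07 in isoxaben plus PEP3 and 1.83 ± 0.619 in DMSO. ILL6, which encodes an amidohydrolase that splits the conjugate, averaged 24.6 ± 6.42 FPKM in isoxaben, 2.07 ± 0.316 in PEP3, 8.20 ± 1.58 in isoxaben plus PEP3 and 2.86 ± 0.822 in DMSO.

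**Figure D5:**
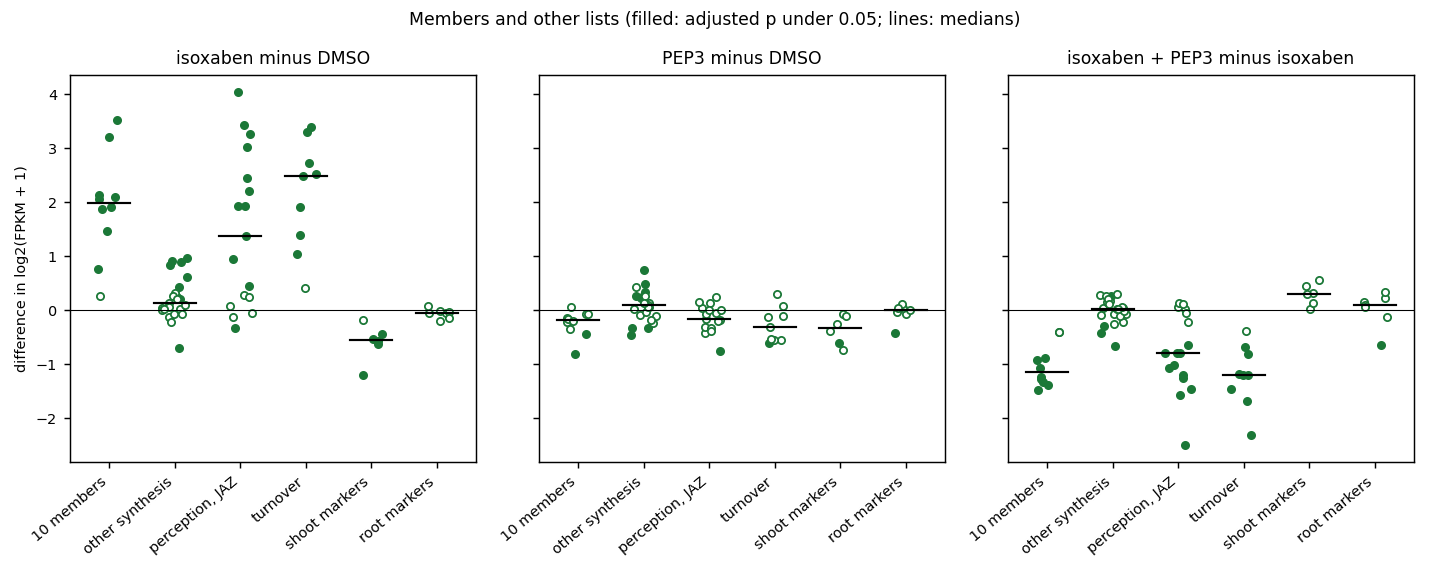
Difference in log2(FPKM + 1) (vertical axis) of the 10 genes, other synthesis genes, perception and JAZ genes, turnover genes, shoot markers and root markers in 3 comparisons, with filled points for called genes and lines for medians. After isoxaben the medians are 1.99 for the 10 genes, 0.13 for other synthesis genes, 1.37 for perception and JAZ genes and 2.49 for turnover genes.

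Markers of green tissue also moved with isoxaben, in the opposite direction. Of 6 shoot markers tested, 5 (CAB1, CAB2, LHCA1, PSAG and PSBR) were called lower and 0 higher in isoxaben than in DMSO, where 15.2% of all genes were called lower, with a median change of -0.55, and the 7 listed genes summed to 18552 to 19749.6 FPKM per library in isoxaben, 19374 to 23096 in PEP3, 19874 to 20969 in isoxaben plus PEP3 and 22485 to 24158 in DMSO. Of 7 root markers tested, 0 were called after isoxaben, and the 8 listed genes summed to 2017 to 2565 FPKM in isoxaben, 1694 to 1772 in PEP3, 1352 to 1636 in isoxaben plus PEP3 and 2262 to 2325 in DMSO, with PYK10, called lower after PEP3 and in isoxaben plus PEP3 against isoxaben, the most abundant of them. Of 3 seed markers, SESA1 alone was tested and was called higher after isoxaben (log2 change 1.07, SE 0.249, adjusted p 0.00445 by limma), with 1.42 ± 0.833 FPKM in isoxaben and 0.103 ± 0.117 FPKM in DMSO. SESA1 reached the filter only through isoxaben, with means of 0.212 FPKM in PEP3 and 0.434 FPKM in isoxaben plus PEP3. Its call is therefore not independent of the filter. The part of these shifts in the values of the 10 genes was not tested.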

How the data were processed

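For 12 poly(A)-selected libraries the deposited values are FPKM of 32833 genes, in 1 table with gene lengths and positions. Per the submitters' processing notes, HISAT2 2.0.5 and the build TAIR10 were used. Neither the counting program nor the annotation nor the use of strand is given in the sources used here. Each column name matched 1 library. FPKM times gene length came in whole steps within a library (100% of values, tolerance 0.01 fragments), from which depth was recovered.

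A linear model in limma 3.58.1 (R 4.3.3) gave each treatment a mean on log2(FPKM + 1), from all 12 libraries, without covariates and with trended eBayes. The filter was a mean of 0.5 FPKM (20248 genes kept, 12585 left out). The fit left 8 residual degrees of freedom, and Benjamini-Hochberg adjustment ran over all genes tested within each of 7 comparisons. The p-values rest on 1 spread per gene, pooled over the replicates of all treatments and moderated by eBayes. They do not rest on the spread of the compared treatments alone. Linear additivity used errors carried over from the fitted standard errors. Alternatives were a pseudocount of 0.1, no filter and a filter at 2 FPKM, TPM scaling, quantile normalization, no trend, voom on recovered fragments, a replicate block, the compared groups only, AOC1 to AOC3 summed, and each library left out. After the data were seen, 1 with 2 libraries left out was added. The steps were tested on simulated data.

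Of the gene identifiers, 32548 matched the RefSeq TAIR10.1 annotation, and 99.95% of these had the same start, end and strand, as had all 10 genes. Copies were searched with BLAST 2.17.0, and motifs in the 250 bases before each annotated start. Python 3.11.15, numpy 2.4.6, pandas 2.3.3 and matplotlib 3.10.9 were used. The 10 genes and the other lists were chosen with earlier results of these data known. By rule all 10 were named, with up to 4 called genes of the largest change per list, 7 fixed pathway genes, and the 5 genes most like the mean profile. Genes with no annotated symbol are given by identifier.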

Additional observations from a re-analysis of the deposited data

Results flagged for a closer look

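The effect of PEP3 differed between seedlings with and without isoxaben for 6 of the 10 genes, by the limma test of the interaction with adjustment over all 20248 genes tested, of which 4.30% were called lower and 1.94% higher. The PEP3 effect with isoxaben minus that without was -1.44 for AOC3, -1.34 for LOX4, -1.12 for AOC1, -0.80 for LOX3, -0.72 for AOC2 and -0.68 for OPCL1 on the log2 scale. For AOC3 the effect of PEP3 was -1.39 with isoxaben and 0.053 without it, and for LOX4 it was -1.47 with isoxaben and -0.14 without it. LOX3 lost the call in 8 and OPCL1 in 9 of the 12 fits without 1 library, and with no expression filter 2 genes, AOC3 and LOX4, were called.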

How the results depend on the processing

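Over all alternatives, 1479 values for a gene and comparison kept their direction and their side of the threshold, 57 lost the call, 18 gained one and 7 changed sign. These counts include the linear additivity test, a different question, set against the log2 interaction. They also hold the sum of AOC1 to AOC3 once for each of AOC1, AOC2 and AOC3. The 9 rises after isoxaben were called under every alternative run. With no expression filter 1 of the 10 genes was called after PEP3 (LOX3 lost) and 2 in the interaction, and the numbers of all genes called were 1900 for PEP3 against DMSO, 742 for isoxaben plus PEP3 against isoxaben, 1033 against PEP3 and 428 for the interaction. Without the trend 1 of the 10 was called after PEP3. Fitting the compared groups only gave 931 genes for isoxaben plus PEP3 against isoxaben. Without 1 library at a time, the genes called were 1621 to 3065 for PEP3 against DMSO, 881 to 1483 and 1011 to 1920 for isoxaben plus PEP3 against isoxaben and against PEP3, and 662 to 1500 for the interaction, and of the 10 genes 1 to 3 were called after PEP3 and 4 to 7 in the interaction. With DMSO replicate 1 and isoxaben replicate 2 both left out, chosen after seeing the data, 4160 genes were called after isoxaben, 1854 after PEP3, 986 for isoxaben plus PEP3 against isoxaben and 430 in the interaction, where 3 of the 10 were past the threshold. Signs changed only for values that were uncalled in the main fit. AOC3 after PEP3 was -0.022 without both libraries. The sum of AOC1 to AOC3, set in place of AOC3, was -0.30 after PEP3 (SE 0.112, limma adjusted p 0.0948). That sum is not a value of AOC3 alone. Without 1 library at a time, changes after PEP3 ran from -0.18 to 0.018 for LOX2 and -0.022 to 0.14 for AOC3. For AOC4 they ran from -0.23 to 0.071. The change of AOC4 for isoxaben plus PEP3 ranged over -0.30 to 0.00328 against DMSO and -0.12 to 0.00692 against PEP3. Against DMSO, AOC4 was called lower in an alternative (limma adjusted p 0.0483).

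Same-numbered libraries of different treatments did not clearly deviate together (correlation -0.11 to 0.10 over 18 pairs, with 5 of 12 libraries closest to their own number). This cannot exclude a batch shared by number, and no pairing was assumed. Blocking on the number changed the SE after isoxaben from 0.145 to 0.111 for AOC1, from 0.109 to 0.0920 for AOC2 and from 0.109 to 0.111 for AOC3. With the replicate number as a block, 6380 genes were called after isoxaben and 2751 after PEP3, LOX3 missed the threshold after PEP3 (log2 change -0.44, adjusted p 0.0524) and AOC2 passed it (0.0307). The voom fit on recovered fragments called 6914 genes after isoxaben and 3060 after PEP3. In it LOX3 was lost after PEP3 (0.0660) and AOC2 gained (0.0231), and AOC4 was called in isoxaben plus PEP3 against isoxaben (0.0365) and in isoxaben against PEP3 (0.0495), so that all 10 genes were called in both. LOX4 had the fewest fragments of the 10 genes, 40 to 74 per PEP3 library.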

Other observations

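The desaturases that make linolenic acid in the plastid, chosen here after their values were seen, differed from each other. FAD7 averaged 121 ± 10.3 FPKM in isoxaben, 70.2 ± 3.17 in PEP3, 75.3 ± 2.14 in isoxaben plus PEP3 and 88.7 ± 2.44 in DMSO, called higher after isoxaben (log2 change 0.44, SE 0.0657, adjusted p 0.000175 by limma) and lower after PEP3 (log2 change -0.33, SE 0.0657, adjusted p 0.00446 by limma). FAD8 averaged 34.2 ± 2.69 FPKM in isoxaben, 26.5 ± 2.69 in PEP3, 27.8 ± 0.366 in isoxaben plus PEP3 and 33.6 ± 1.35 in DMSO, not called after isoxaben and called lower after PEP3 (log2 change -0.33, SE 0.0776, adjusted p 0.0118 by limma). The hydroperoxide lyase gene HPL1 (CYP74B2), whose enzyme competes with AOS for fatty acid hydroperoxides and is known to be truncated in Col-0, averaged 1.71 ± 0.670 FPKM in isoxaben, 0.277 ± 0.134 in PEP3, 0.567 ± 0.142 in isoxaben plus PEP3 and 0.859 ± 0.399 in DMSO, and was called lower in isoxaben plus PEP3 than in isoxaben (log2 change -0.77, SE 0.198, adjusted p 0.0326 by limma). ACX2, an acyl-CoA oxidase gene, was called higher after PEP3 (log2 change 0.49, SE 0.0742, adjusted p 0.000811 by limma), with 38.9 ± 1.06 FPKM in PEP3 and 27.5 ± 0.879 FPKM in DMSO, and was not called after isoxaben.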
